A study of Mus musculus with 4 samples.

Results

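The genes described here are the mouse MHC class II presentation genes H2-Aa, H2-Ab1, H2-Eb1, H2-DMa, H2-DMb1, Cd74 and Ciita. They were taken by gene name from a table of 54532 genes, and all 7 were found. The table gives RNA sequencing values for 4 libraries, whose labels name flow-sorted CD4+ T cells out of tumours of the mouse melanoma line B16. 2 libraries carry the genotype Piezo1KO and 2 carry the genotype WT, and all 4 share the tumour as tissue and the tumour surroundings as treatment. Libraries are numbered by the sample number in their titles. The labels give no strain or age, nor do they say how Piezo1 was removed, in which cells, or whether the libraries of a genotype came from different animals. A p-value here thus reflects how far these libraries vary, and that variation may be technical. The series asks what Piezo1, a mechanically gated cation channel, does as CD4+ T cells become Th9 cells.

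MHC class II molecules carry peptides to the cell surface, where the receptors of CD4+ T cells read them. An alpha and a beta chain form the peptide-binding heterodimer, the invariant chain Cd74 escorts it into endosomes, proteases trim Cd74 to a short peptide, and the H2-DM dimer exchanges that peptide for antigen. Ciita is the coactivator that switches the whole set on. In mice the set is characteristic of dendritic cells, macrophages and B cells, while resting mouse T cells are generally taken not to make it, and interferon gamma can induce it in other cells, melanoma cells among them.

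Across the 4 libraries the 3 surface chains and Cd74 were 9.53 to 13.6 times as high in Piezo1KO as in WT by the ratio of mean FPKM (fragments per kilobase of gene length, scaled to library size), and H2-DMa was 15.0 times as high. H2-DMb1 was 3.08 times as high. Ciita stayed below 0.43 FPKM everywhere and overlapped between the genotypes. Only H2-Eb1, at a log2 fold change of 3.41, passed the test with its p adjusted over all genes.

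In all 4 libraries the markers of the labelled T cells were far below those of melanocytes. Between 13789266 and 15892797 reads per library were assigned to genes. The 13 T cell marker genes together had 479 and 141 reads in Piezo1KO 1 and Piezo1KO 2, against 129 and 100 reads in WT 1 and WT 2. Cd4 itself had 35 and 9 reads in Piezo1KO, against 1 and 3 reads in WT, and Cd3e, which encodes CD3 epsilon, had 27 and 0 reads in Piezo1KO, against 1 and 2 reads in WT. The 9 melanocyte genes together had 361888 and 175047 reads in Piezo1KO, against 450113 and 466949 reads in WT, and their summed level was 7446 and 7326 FPKM in Piezo1KO, against 6761 and 6788 FPKM in WT. Mitochondrial transcripts took 20.1% and 48.3% of assigned reads in Piezo1KO 1 and Piezo1KO 2, against 3.86% and 2.99% in WT 1 and WT 2. Piezo1 itself had 18.7 and 7.64 FPKM in Piezo1KO 1 and Piezo1KO 2, against 27.8 and 27.6 FPKM in WT 1 and WT 2, a log2 fold change of -1.14 ± 0.41 (SE) that did not pass (limma adjusted p = 0.166).

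Class II promoters are known for an X box, bound by the RFX complex, followed at a set distance by a Y box, bound by NF-Y. RefSeq promoters on GRCm38.p6, each from 250 bases before to 50 bases after a gene's start, were matched for 4 of the 7 genes, H2-Aa, H2-Eb1, H2-DMb1 and H2-DMa. The 3 windows below are shown because these promoters hold both sets of letters, in the same order and at nearly the same spacing. Capitals mark first the X box letters CTNGNAACT, with N for any base, and then the Y box letters TGATTGG, both searched on either strand. The windows run 5′ to 3′ on the strand of the gene: H2-Aa on the minus strand at chr17:34287847-34287927, H2-Eb1 on the plus strand at chr17:34305753-34305832, and H2-DMb1 on the plus strand at chr17:34153074-34153154.
H2-Aa: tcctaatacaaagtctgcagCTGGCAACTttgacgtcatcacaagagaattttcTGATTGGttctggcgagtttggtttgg
H2-Eb1: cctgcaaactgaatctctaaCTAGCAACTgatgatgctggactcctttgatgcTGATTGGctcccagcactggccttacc
H2-DMb1: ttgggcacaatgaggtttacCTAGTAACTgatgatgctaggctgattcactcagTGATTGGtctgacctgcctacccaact

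The start of the X letters and the start of the Y letters lay 34 bases apart in H2-Aa, 33 in H2-Eb1 and 34 in H2-DMb1. The letters were written after these promoters had been read, so their presence here is a description. Of all 32851 promoters in the table, 4.10% held the X letters, 7.82% held the Y letters and 0.350% held both. Both at a distance of 33 or 34 bases on 1 strand occurred in 5 promoters, 0.0152% of all, and 3 of those 5 are the ones printed. No X letters overlap Y letters in the printed windows. Neither of the promoters listed for H2-DMa held either set of letters, and both lie upstream of the start that the deposited table gives for that gene. The H2-DMb1 window lies just inside the gene span of the deposited table, whose annotated start is upstream of the RefSeq start. Promoters of 4 other class II genes, H2-DMb2, H2-Oa, H2-Ob and H2-Eb2, held the Y letters without the X letters. No entry was matched for H2-Ab1, Cd74 and Ciita.

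H2-Aa (ENSMUSG00000036594, GRCm38 chromosome 17, 34282744 to 34287827) encodes the alpha chain of the I-A molecule. H2-Aa had 48.7 and 22.4 FPKM in Piezo1KO 1 and Piezo1KO 2, from 1347 and 314 reads, against 2.63 and 4.41 FPKM in WT 1 and WT 2, from 97 and 168 reads. Both Piezo1KO values lay above both WT values, and Piezo1KO 1 was 2.18 times as high as Piezo1KO 2. The means were 35.5 ± 18.7 FPKM in Piezo1KO and 3.52 ± 1.26 FPKM in WT (SD, n = 2 each), and the log2 fold change of 2.94 ± 0.42 (SE) missed the threshold (limma adjusted p = 0.0756).

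H2-Ab1 (ENSMUSG00000073421, chromosome 17, 34263209 to 34269418) encodes the beta chain that pairs with H2-Aa. H2-Ab1 had 80.1 and 31.6 FPKM in Piezo1KO 1 and Piezo1KO 2, from 1933 and 388 reads, against 3.81 and 4.38 FPKM in WT 1 and WT 2, from 123 and 146 reads. The WT values were close together, and Piezo1KO 1 was 2.53 times as high as Piezo1KO 2. The log2 fold change was 3.34 ± 0.45 (SE), with a limma adjusted p = 0.0681, and H2-Ab1 averaged 55.8 ± 34.3 FPKM in Piezo1KO and 4.10 ± 0.405 FPKM in WT (SD, n = 2 each).

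H2-Eb1 (ENSMUSG00000060586, chromosome 17, 34305877 to 34316199) encodes the beta chain of the I-E molecule. H2-Eb1 had 80.1 and 43.9 FPKM in Piezo1KO 1 and Piezo1KO 2, from 1398 and 390 reads, against 3.86 and 5.60 FPKM in WT 1 and WT 2, from 90 and 135 reads. Here the Piezo1KO libraries were nearest to each other among the surface chains, at a ratio of 1.82. H2-Eb1 rose by 3.41 ± 0.34 (SE) on the log2 scale and passed (limma adjusted p = 0.0391), with means of 62.0 ± 25.5 FPKM in Piezo1KO and 4.73 ± 1.24 FPKM in WT (SD, n = 2 each). The gene for its partner, the I-E alpha chain, is annotated in the deposited table as the pseudogene H2-Ea-ps, and it had 0 reads in all 4 libraries.

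Cd74 (ENSMUSG00000024610, chromosome 18, 60803848 to 60812646) encodes the invariant chain, which blocks the peptide groove and sorts class II to endosomes. It had the highest level of the 7 genes in every library. Cd74 had 185 and 65.1 FPKM in Piezo1KO 1 and Piezo1KO 2, from 3851 and 688 reads, against 11.5 and 14.8 FPKM in WT 1 and WT 2, from 319 and 424 reads. The genotypes did not overlap, but Piezo1KO 1 was 2.84 times as high as Piezo1KO 2, the widest spread among the genes that were tested. The log2 fold change was 2.98 ± 0.52 (SE) and did not pass (limma adjusted p = 0.0962), with means of 125 ± 84.9 FPKM in Piezo1KO and 13.1 ± 2.34 FPKM in WT (SD, n = 2 each).

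H2-DMa and H2-DMb1 encode the subunits of the peptide exchanger. H2-DMa (ENSMUSG00000037649, chromosome 17, 34135182 to 34139101) had 9.59 and 3.98 FPKM in Piezo1KO 1 and Piezo1KO 2, from 232 and 49 reads, against 0.278 and 0.629 FPKM in WT 1 and WT 2, from 9 and 21 reads. H2-DMa was near the bottom of the measurable range in WT, where 3 reads correspond to 0.0927 and 0.0898 FPKM. Its log2 fold change of 2.33 ± 0.40 (SE) did not pass (limma adjusted p = 0.0955), and this scale, with 1 added to FPKM, understates the change of a gene this low.

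H2-DMb1 (ENSMUSG00000079547, chromosome 17, 34153072 to 34160230) encodes the beta subunit. H2-DMb1 had 12.5 and 9.97 FPKM in Piezo1KO 1 and Piezo1KO 2, from 274 and 111 reads, against 4.61 and 2.68 FPKM in WT 1 and WT 2, from 135 and 81 reads. Of the 7 genes this was the one on which the Piezo1KO libraries came closest, at a ratio of 1.25, and among the 6 tested the only one higher in WT 1 than in WT 2. The log2 fold change of 1.42 ± 0.25 (SE) did not pass (limma adjusted p = 0.0980). H2-DMb2, a close paralog that could share reads with it, had 2.30 and 1.40 FPKM in Piezo1KO, against 0.148 and 0.517 FPKM in WT, and also did not pass (log2 fold change 1.09, limma adjusted p = 0.130). It was the 1 tested gene of the 5 other class II genes in the table. The split of reads between both beta genes is uncertain, since the sources do not say how reads that match both were handled.

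Ciita (ENSMUSG00000022504, chromosome 16, 10480059 to 10528418) encodes the coactivator itself. Ciita had 0.427 and 0.0980 FPKM in Piezo1KO 1 and Piezo1KO 2, from 60 and 7 reads, against 0.144 and 0.108 FPKM in WT 1 and WT 2, from 27 and 21 reads. Piezo1KO 1 was the highest library and Piezo1KO 2 the lowest, with both WT libraries between them. With a mean below 1 FPKM Ciita was not tested, and the difference of its mean log2 values was 0.15, or -0.036 without Piezo1KO 1. Ciita overlaps Dexi, a gene on the other strand with 146 and 94 reads in Piezo1KO and 247 and 238 reads in WT, and the sources do not say whether counting used the strand, so reads in the overlap cannot be told apart.

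**Figure D1:**
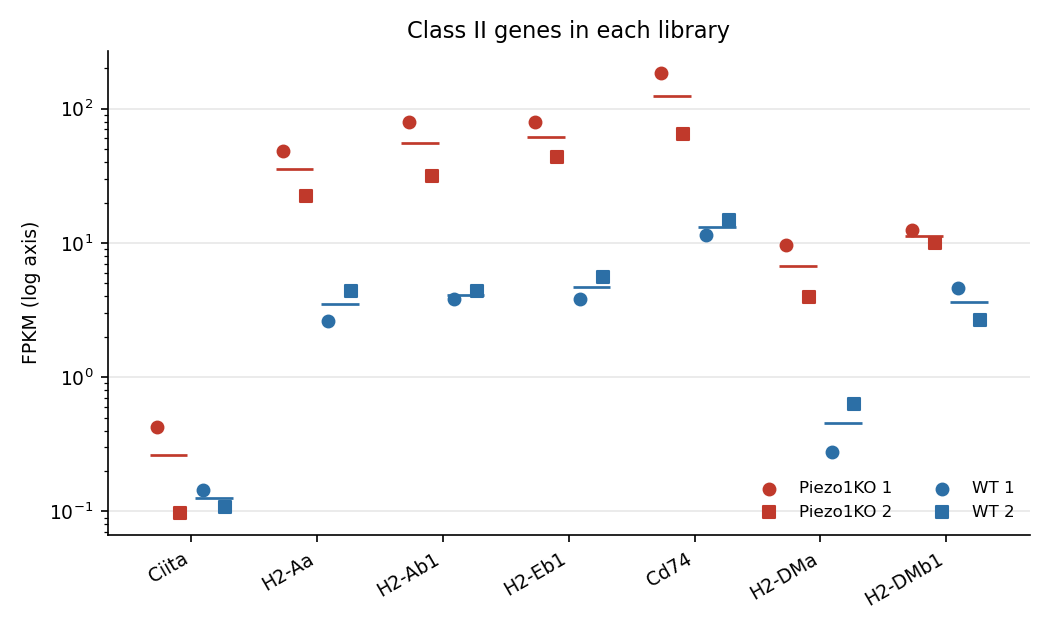
FPKM of each class II gene (log axis) in Piezo1KO 1 and 2 (red) and WT 1 and 2 (blue); each point is 1 library and each horizontal line the mean of a genotype (n = 2). The Piezo1KO points lie above both WT points for every gene except Ciita, whose Piezo1KO points lie on either side of WT.

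Of the 7 genes 6 could be tested, and 1 of the 6 passed, higher in Piezo1KO. Of all 11085 genes tested, 1.1% passed, 0.731% as higher and 0.37% as lower. All 6 were higher without overlap between the genotypes, against 33.9% of all genes tested (35.6% were lower without overlap), and all 6 had an unadjusted p under 0.05 and a positive log2 fold change, against 14.9%. The median log2 fold change was 2.96 over the 6 genes, ranging from 1.42 to 3.41, and -0.0059 over all genes tested. H2-DMa passed the filter of 1 FPKM through the Piezo1KO libraries alone, so these counts lean towards genes that are higher in Piezo1KO and are a description. Over the 5 other tested genes the median was 2.98. Among all genes tested, the fold change of H2-DMb1 lay at percentile 96.4, that of H2-DMa at 99.0 and those of the remaining 4 between 99.5 and 99.6.

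**Figure D2:**
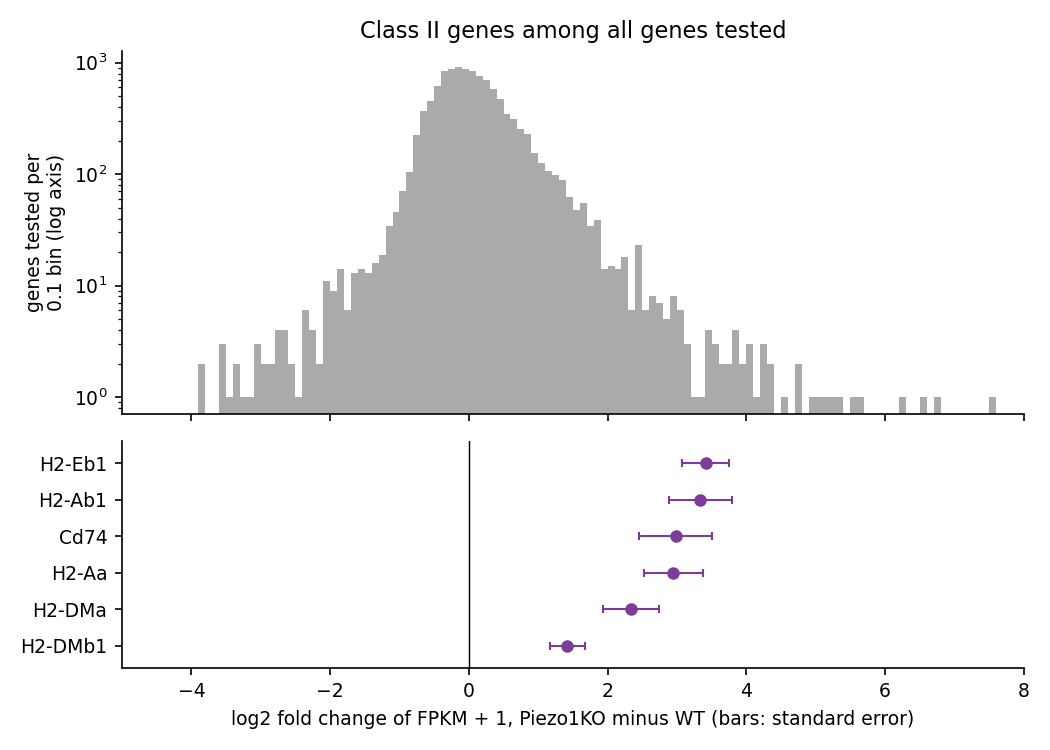
Upper panel, log2 fold change (Piezo1KO minus WT) of the 11085 genes tested, as a histogram with a log count axis; lower panel, the 6 tested class II genes on the same axis with their standard errors. The bulk of genes sits around the median of -0.0059, and the class II genes run from 1.42 for H2-DMb1 to 3.41 for H2-Eb1.

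The calls depended on single libraries; in the fits that leave 1 library out, the lone library of a genotype is assumed to vary like the other genotype. Without WT 1 or without WT 2, 0 of the 6 passed in limma, with H2-Eb1 at an adjusted p of 0.434 and 0.422, and all 6 kept an unadjusted p under 0.05. Of all genes tested 0% passed as higher in those fits, with 723 and 616 genes at an unadjusted p under 0.05 in either direction. Without Piezo1KO 1 all 6 passed, against 27.5% of all genes tested, and the median over the 6 was 2.32. Without Piezo1KO 2 all 6 passed, against 9.71%, and the median was 3.61. Of the 122 calls over all genes 66.4% were higher, while 16.2% of calls were higher with FPKM rescaled to all assigned reads and 56.2% with rescaling to reads outside mitochondrial genes. Those scalings moved the median of all genes to -0.67 and -0.20, and the medians over the 6 class II genes were 2.22 and 2.79. With the first, 5 of the 6 passed, against 2.5% of all genes, and H2-DMb1 had a log2 difference of 0.74 (limma adjusted p = 0.193).

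As a share of all assigned reads, the 7 genes together held 0.0593% in Piezo1KO 1 (exact 95% binomial interval 0.0581 to 0.0606%) and 0.0141% in Piezo1KO 2 (0.0135 to 0.0148%). The shares in WT 1 and WT 2 were 0.00511% (0.00477 to 0.00548%) and 0.00627% (0.00588 to 0.00667%). The intervals cover counting error only. Both Piezo1KO shares were above both WT shares, and the Piezo1KO shares differed from each other far beyond counting error. Outside mitochondrial genes the shares were 0.0743% and 0.0273% in Piezo1KO, against 0.00532% and 0.00646% in WT. Set among protein-coding genes, Cd74 stood at percentile 99.1 and 96.4 in Piezo1KO 1 and Piezo1KO 2, against 84.1 and 87.4 in WT 1 and WT 2. H2-Ab1 stood at percentile 97.7 and 92.9 in Piezo1KO, against 67.9 and 69.8 in WT.

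Ratios of FPKM within a library do not depend on how that library was scaled, and they compare genes per length. H2-Aa was 0.609 and 0.707 times H2-Ab1 in Piezo1KO 1 and Piezo1KO 2, against 0.689 and 1.01 times in WT 1 and WT 2. H2-Eb1 was 1.00 and 1.39 times H2-Ab1 in Piezo1KO, against 1.01 and 1.28 times in WT, and H2-DMa was 0.120 and 0.126 times in Piezo1KO, against 0.0730 and 0.143 times in WT. These 3 ratios overlapped between the genotypes, while the summed level of the 7 genes was 417 and 177 FPKM in Piezo1KO, against 26.8 and 32.6 FPKM in WT. Cd74 was 2.31 and 2.06 times H2-Ab1 in Piezo1KO, against 3.01 and 3.37 times in WT, without overlap.

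H2-DMb1 and Ciita departed from those proportions. H2-DMb1 was 0.156 and 0.315 times H2-Ab1 in Piezo1KO 1 and Piezo1KO 2, against 1.21 and 0.612 times in WT 1 and WT 2. H2-DMb1 was 1.31 and 2.50 times H2-DMa in Piezo1KO, against 16.6 and 4.26 times in WT, where H2-DMa rests on 9 and 21 reads. Ciita was 0.00533 and 0.00310 times H2-Ab1 in Piezo1KO, against 0.0377 and 0.0247 times in WT. None of these 3 ratios overlapped, and each was lower in Piezo1KO. H2-DMb1 was 5.44 and 7.10 times H2-DMb2 in Piezo1KO, against 31.1 and 5.18 times in WT, so that ratio overlapped. The Ciita ratio rests on 60 and 7 reads in Piezo1KO and on 27 and 21 reads in WT. Some of those reads may belong to the overlapping gene Dexi. With 2 libraries against 2 no exact permutation test can go below p = 0.333, so these ratios are given without a test.

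**Figure D3:**
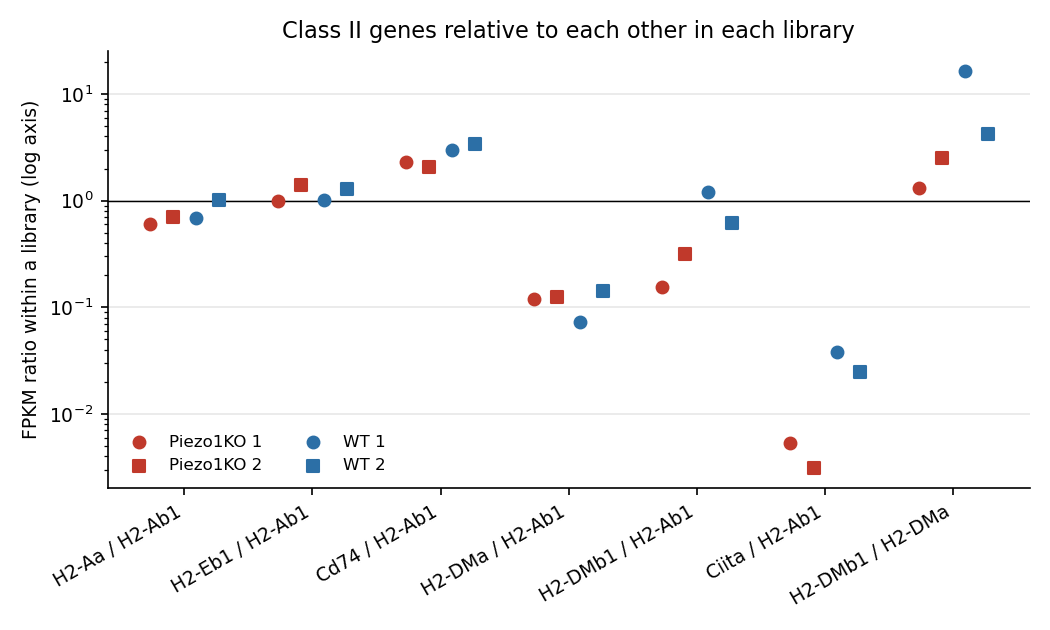
Ratio of FPKM between class II genes within each library (log axis), Piezo1KO in red and WT in blue, 1 point per library; the black line marks a ratio of 1. H2-Aa, H2-Eb1 and H2-DMa relative to H2-Ab1 overlap between the genotypes, while Cd74, H2-DMb1 and Ciita relative to H2-Ab1 are lower in Piezo1KO.

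Markers of the cells that usually carry class II also differed between the libraries. Of 14 macrophage and monocyte genes 11 were tested, and 3 passed, all higher, against 0.731% of all genes tested. Their summed level was 493 and 314 FPKM in Piezo1KO 1 and Piezo1KO 2, against 98.8 and 74.2 FPKM in WT 1 and WT 2. Lyz2, a myeloid lysozyme, had a log2 difference of 2.39 (limma adjusted p = 0.0641), while C1qa, a complement subunit, and Cd14, the lipopolysaccharide coreceptor, rose by 1.85 and 3.92 (limma adjusted p = 0.0461 and 0.0492). With FPKM rescaled to all assigned reads C1qa had 1.07 and did not pass (limma adjusted p = 0.0615). Cd14 did not pass without the intensity trend or with voom on whole reads (limma adjusted p = 0.0507 and 0.0527). Among the tested genes of this list Adgre1 and Mertk overlapped between the genotypes, at log2 differences of 0.34 and 0.13 (limma adjusted p = 0.594 and 0.653).

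Dendritic cell genes, 11 in the list and 4 tested, summed to 20.7 and 10.7 FPKM in Piezo1KO, against 5.37 and 6.17 FPKM in WT, and 0 passed in limma. Fscn1, an actin bundler of mature dendritic cells, had a log2 difference of 0.34, and Itgax, which encodes CD11c, had 1.49 (limma adjusted p = 0.248 and 0.118). Ccr7, the lymph node homing receptor, had 1.29 (limma adjusted p = 0.198). Itgax and Ccr7 had WT means below the filter. Zbtb46, which was not tested, overlapped between the genotypes, at 0.869 and 0.706 FPKM in Piezo1KO, against 0.823 and 1.08 FPKM in WT. Clec9a had 6 and 0 reads in Piezo1KO and 0 and 0 reads in WT, and Xcr1 had 4 and 5 reads in Piezo1KO and 0 and 2 reads in WT, both markers of cross-presenting dendritic cells.

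B cell genes were low everywhere. The 8 of them summed to 3.51 and 1.19 FPKM in Piezo1KO 1 and Piezo1KO 2, against 1.47 and 1.26 FPKM in WT 1 and WT 2, so the genotypes overlapped. Cd79a, a signalling chain of the B cell receptor and the highest of them, had a log2 difference of 0.42 (limma adjusted p = 0.393). Ms4a1, which encodes CD20, had 8 and 0 reads in Piezo1KO and 3 and 7 reads in WT.

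Neutrophil genes, which mark cells with little class II, summed to 144 and 48.4 FPKM in Piezo1KO, against 0.756 and 1.39 FPKM in WT. S100a9 and S100a8, calcium-binding proteins of neutrophils, rose by 5.30 and 4.04 (limma adjusted p = 0.0479 and 0.0433), while Ly6g had 0 reads in all 4 libraries. Both had WT means below the filter, at 0.331 FPKM for S100a9 and 0.287 FPKM for S100a8, and were tested through the Piezo1KO libraries alone, so their calls are a description. The 6 genes common to leukocytes summed to 130 and 68.4 FPKM in Piezo1KO, against 13.0 and 11.0 FPKM in WT, and among them the lysosomal membrane protein Laptm5 rose by 2.06 (limma adjusted p = 0.0354) and the proteoglycan Srgn had 3.62 (limma adjusted p = 0.0630). Gzma, a granule protease, had 50 and 20 reads in Piezo1KO and 0 reads in both WT libraries. Of 4 tested neutrophil genes 2 passed and of 5 tested leukocyte genes 2 passed, all higher, against 0.731% of all genes tested. Csf3r and Retnlg, the neutrophil genes tested beside S100a8 and S100a9, also had WT means below the filter, at 0.186 and 0.170 FPKM. The neutrophil count is thus a description too. Gzma, the 1 tested gene of the 6 in the NK cell list, entered the test through the Piezo1KO libraries alone and is given by its reads. Without WT 1, without WT 2 or without a filter, 0 genes of the macrophage, neutrophil, leukocyte and NK cell lists passed in limma, and with voom 0 neutrophil genes did. Over the alternatives that keep all 4 libraries, 0 to 7 macrophage, 0 to 4 neutrophil and 0 to 5 leukocyte genes passed. The share of all genes tested that passed as higher ran from 0.00423% to 2.5% over the same alternatives. Of the T cell list Lck, Trac and Trbc2 were tested, at log2 differences of 0.77, 1.35 and 1.56, and 0 passed in limma. Trac and Trbc2 had WT means below the filter. Without a filter the median over all 13 T cell genes was 0.52. The scale, with 1 added to FPKM, understates the changes of genes this low. All 9 melanocyte genes were tested and 0 passed in limma, with a median of -0.19 and with log2 differences of 0.19 for Pmel, -0.20 for Tyrp1 and 0.29 for Dct, the enzymes and matrix protein of pigment granules. The melanocyte median was -0.99 with FPKM rescaled to all assigned reads, where 2 genes passed as lower, and -1.25 after quantile normalisation. Of the endothelial and fibroblast lists 3 genes each were tested and 0 passed in limma. In bulk RNA more cells of a type and more RNA per cell cannot be told apart.

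Set against those lists within each library, the summed class II level was 3.20 and 2.59 times the leukocyte list in Piezo1KO 1 and Piezo1KO 2, against 2.06 and 2.97 times in WT 1 and WT 2. The genotypes overlapped on this measure. Against the macrophage and monocyte list it was 0.846 and 0.564 times in Piezo1KO, against 0.271 and 0.439 times in WT. Against the dendritic cell list it was 20.1 and 16.5 times in Piezo1KO, against 4.99 and 5.28 times in WT. Both of these ratios were higher in Piezo1KO without overlap. The dendritic ratio leans on Fscn1, which alone made up 3.23 of 5.37 and 3.43 of 6.17 FPKM of that list in WT. In Piezo1KO Fscn1 made up 5.18 of 20.7 and 3.85 of 10.7 FPKM. The ratio to the neutrophil list, 2.88 and 3.66 in Piezo1KO against 35.4 and 23.5 in WT, was lower. The ratio to the NK cell list, 115 and 54.8 in Piezo1KO against 209 and 211 in WT, was lower too. These lists were low in WT, at 20 and 40 reads for the neutrophil list and 12 and 10 reads for the NK cell list. In Piezo1KO the NK cell list was mostly 1 gene, Gzma, at 3.37 of 3.62 and 2.65 of 3.23 FPKM.

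Gene by gene, H2-Aa and Cd74 overlapped between the genotypes relative to the leukocyte list, at 1.42 and 0.951 times for Cd74 in Piezo1KO, against 0.882 and 1.35 times in WT. H2-Ab1, H2-Eb1 and H2-DMa were higher in Piezo1KO without overlap on this measure. H2-Ab1 was 0.614 and 0.462 times in Piezo1KO, against 0.293 and 0.399 times in WT, and H2-Eb1 0.614 and 0.642 against 0.296 and 0.510 times. For H2-DMa the gap was narrow, at 0.0735 and 0.0582 times in Piezo1KO, against 0.0214 and 0.0572 times in WT. It lies between Piezo1KO 2, with 49 H2-DMa reads, and WT 2, with 21. H2-DMb1 was lower, at 0.0960 and 0.146 times in Piezo1KO, against 0.354 and 0.244 times in WT, and Ciita was lower as well. The part of these cell type markers in the class II result was not tested.

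**Figure D4:**
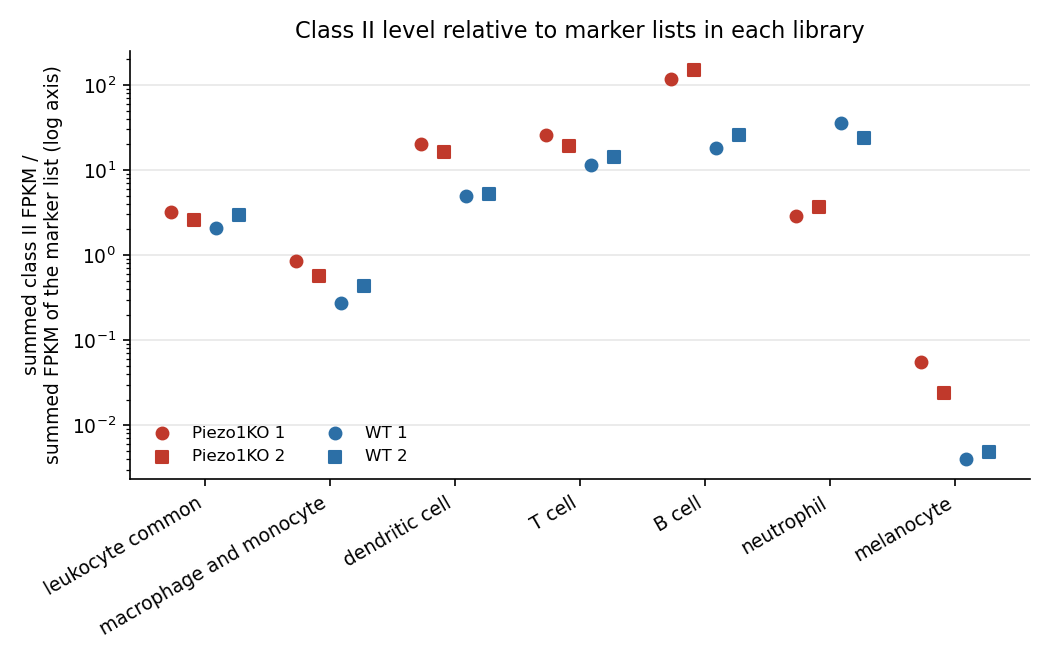
Summed FPKM of the 7 class II genes divided by the summed FPKM of 7 of the 10 marker lists (log axis), Piezo1KO in red and WT in blue, 1 point per library. The genotypes overlap for the leukocyte list, whereas the Piezo1KO points are higher for the macrophage, dendritic, T cell, B cell and melanocyte lists and, among the lists drawn, lower for the neutrophil list.

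The machinery around class II was read from 7 lists of pathway genes. Of 9 endosomal proteases and loading factors, all tested, 2 rose and 0 fell, against 0.731% and 0.37% of all genes tested. The median log2 fold change of the list was 0.89. Ctss, cathepsin S, which makes the last cut in Cd74, had 69.4 and 45.3 FPKM in Piezo1KO 1 and Piezo1KO 2, against 12.8 and 12.2 FPKM in WT 1 and WT 2, and rose by 2.08 ± 0.24 (SE, limma adjusted p = 0.0492). Ctsh, cathepsin H, had 5.37 and 5.43 FPKM in Piezo1KO, against 1.95 and 1.81 FPKM in WT, and rose by 1.15 ± 0.13 (SE, limma adjusted p = 0.0493). Neither passed without WT 1 or without WT 2. With FPKM rescaled to all assigned reads Ctsh had 0.54 (limma adjusted p = 0.309) and the list median was 0.091.

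Among the DNA-binding factors of class II promoters, all 7 were tested and 0 passed in limma, with a median log2 fold change of -0.19. Rfxap, a subunit of the RFX complex, had 12.5 and 13.2 FPKM in Piezo1KO, against 7.80 and 9.03 FPKM in WT (log2 fold change 0.56, limma adjusted p = 0.129). The NF-Y subunits Nfya and Nfyc had log2 differences of -0.45 and -0.22, and Creb1, which binds the X2 part of the X box, had -0.19 (limma adjusted p = 0.145, 0.348 and 0.394). Rfx5, the DNA-binding subunit of RFX, had 1.48 and 1.75 FPKM in Piezo1KO, against 1.59 and 1.56 FPKM in WT.

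Of the 10 genes of the interferon gamma pathway 8 were tested and 0 passed in limma, with a median of 0.22 that became -0.37 with FPKM rescaled to all assigned reads. Irf8, a transcription factor of myeloid and B cells, had a log2 difference of 1.07, and Irf1, an interferon-induced transcription factor, had 0.95 (limma adjusted p = 0.122 and 0.206). Ifngr2, a chain of the interferon gamma receptor, had 0.27 (limma adjusted p = 0.225) and -0.49 with FPKM rescaled to all assigned reads. Ifng itself had 1 and 0 reads in Piezo1KO and 0 and 1 reads in WT.

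Of the 3 turnover genes 2 were tested and of the 4 genes tied to Cd74 as a surface receptor 3 were tested, and 0 passed in limma. Cd83, which protects class II from ubiquitination, had 7.57 and 4.10 FPKM in Piezo1KO, against 1.06 and 0.975 FPKM in WT (log2 fold change 1.71, limma adjusted p = 0.0913). March8, a ubiquitin ligase that can target class II, had 6.15 and 5.35 FPKM in Piezo1KO, against 7.58 and 7.91 FPKM in WT (log2 fold change -0.38, limma adjusted p = 0.164). Mif, a ligand of Cd74, had a log2 difference of 1.05, and the coreceptors Cxcr4 and Cd44 had 1.49 and 0.23 (limma adjusted p = 0.158, 0.132 and 0.347). Mif and Cd44 turned to -0.41 and -0.27 after quantile normalisation. Across all 7 lists 2 of 31 tested genes passed, against 1.1% of all genes tested.

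**Figure D5:**
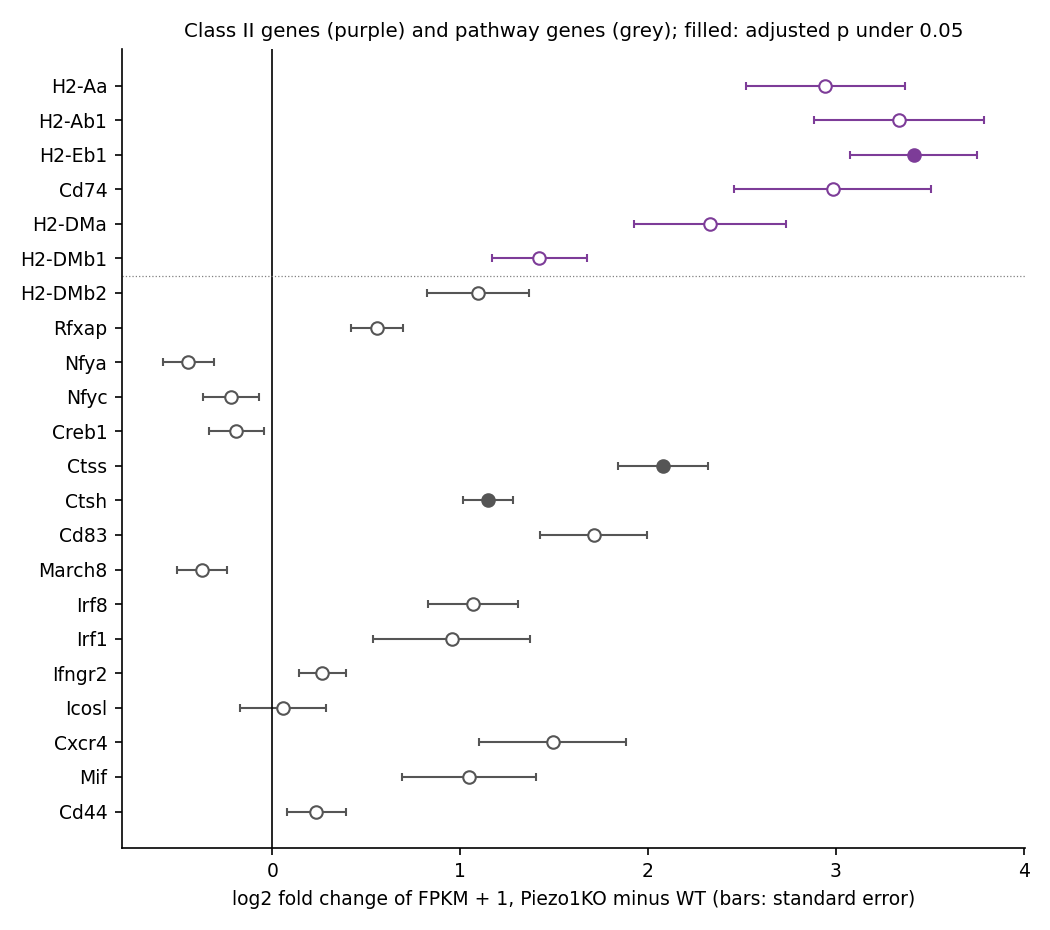
Log2 fold change of FPKM + 1 (Piezo1KO minus WT) with its standard error for the 6 tested class II genes (purple) and the pathway genes shown (grey); filled points passed at an adjusted p under 0.05. Among the class II genes H2-Eb1 is filled, and among the pathway genes Ctss and Ctsh are.

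The 5 class II genes on chromosome 17 lie in a stretch of 18 annotated genes from Brd2 to H2-Eb2. Of the 13 other genes there 5 were tested and 1 passed, against 1.1% of all genes tested, and 5 had 0 reads in all libraries. Of the genes tested, H2-DMb2, Psmb8 and Tap2 were below 1 FPKM in both WT libraries. They entered the test through the Piezo1KO libraries alone, so this count is a description. Psmb8, an immunoproteasome subunit that lies between the H2-DM genes and H2-Ab1, had 4.04 and 3.32 FPKM in Piezo1KO, against 0.556 and 0.413 FPKM in WT, and rose by 1.65 ± 0.18 (SE, limma adjusted p = 0.0461), with a WT mean below the filter. Its neighbours Tap1 and Tap2, the peptide transporter of class I, had 1.02 and 0.56 (limma adjusted p = 0.171 and 0.181). Brd2, the chromatin reader at the edge of the stretch, had 28.6 and 20.1 FPKM in Piezo1KO, against 34.8 and 39.7 FPKM in WT (log2 fold change -0.61, limma adjusted p = 0.163). H2-Ob, which lies between Tap2 and H2-Ab1 and encodes a subunit of the H2-DM inhibitor, had at most 0.109 FPKM in any library.

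Tested genes were ranked by likeness to the class II genes, with Gm-numbered genes, clone names and pseudogenes left out. Each gene's log2 values were centred on their own mean. The measure was the root mean square difference, over the 4 libraries, from the mean centred profile of the 6 class II genes. The nearest was Il1rn, the interleukin 1 receptor antagonist, at a difference of 0.135. It was followed by Retnlg, a secreted protein of neutrophils, at 0.159, the cytokine Tnf at 0.171, the leukocyte actin regulator Coro1a at 0.178 and the stress gene Gadd45b at 0.183. The class II genes themselves lay at 0.167 for H2-Aa, 0.211 for H2-DMa, 0.212 for Cd74, 0.317 for H2-Ab1, 0.353 for H2-Eb1 and 0.763 for H2-DMb1. The 5 named genes were picked as the nearest of all genes ranked. That they lay nearer the profile than most class II genes is thus a description. Il1rn and Retnlg were below 1 FPKM in both WT libraries and were tested through the Piezo1KO libraries alone. Of the class II genes H2-DMb1 was the farthest. Il1rn had 19.8 and 7.38 FPKM in Piezo1KO 1 and Piezo1KO 2, against 0.935 and 0.897 FPKM in WT 1 and WT 2, and none of the 5 passed (limma adjusted p from 0.0537 to 0.106).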

How the data were processed

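Per the labels' protocols, total RNA was purified with a column kit and sequenced from SMARTer mRNA libraries. The authors deposited 1 table of FPKM values for 54532 genes and 4 libraries, with gene lengths. The notes of the submitters on processing name fastp 0.19.7, featureCounts 1.5.0-p3 and the build mm10 (GRCm38). The aligner, annotation release, strand setting and FPKM formula were not given in the sources used here. Multiplied by gene length, 100% of the nonzero values were whole multiples of 1 read (tolerance 0.05). The library size implied by 1 read was 0.962 and 0.544 times the assigned reads in Piezo1KO 1 and Piezo1KO 2, against 1.26 and 1.28 times in WT 1 and WT 2, so rescaled values were tried as alternatives. Recovered reads serve for depth, shares and the voom alternative.

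The test ran on log2 of FPKM with 1 added, using limma (version 3.58.1, under R 4.3.3) with lmFit and eBayes with intensity trend, Piezo1KO minus WT, two-sided, for 11085 genes with a mean of at least 1 FPKM. Benjamini-Hochberg adjustment covered all of them, and genes under 0.05 passed. The code was checked on simulated counts. The 7 genes, the 7 pathway lists and the 10 marker lists were chosen with earlier results of these data known. Named were all 7 genes, pathway genes that passed or else up to 4 with the smallest p, up to 3 of the highest genes of a marker list (for some lists fewer or none) and genes at 0 in all libraries, and 5 genes most like the set; Piezo1 was named as a check of the labels, and other pathway, marker and neighbouring genes named, Cd4, Cd3e and Ms4a1 among them, were picked after their values were seen. The result of 1 gene is not reported here. March1 and March8 were matched by gene ID, since the table holds their symbols as dates. Coordinates are those of the deposited table, which for 2 of the 7 genes equal GENCODE M21.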

Additional observations from a re-analysis of the deposited data

How the results depend on the processing

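Over 13 alternatives the log2 fold changes of the 6 tested class II genes kept their direction in all 77 refits. The call was the same in 55, was gained in 19 and was lost in 3, which were H2-Eb1 without a filter (limma adjusted p = 0.171) and without either WT library. Without a filter 0 of 7 class II genes, 0 pathway genes and 1 gene of 23654 passed by limma; 6, 22 and 4156 had an unadjusted p under 0.05. At a mean of at least 5 FPKM 1 pathway gene and 68 genes passed. Without the intensity trend, and with FPKM rescaled to reads outside mitochondrial genes, 0 pathway genes passed by limma; 17 and 15 had an unadjusted p under 0.05. With FPKM rescaled to all assigned reads 5 class II genes and 1707 genes passed, and the class II median was 2.22. Quantile normalisation gave 1 pathway gene and 192 genes. Leaving out 1 library gave 0 to 5859 genes, 0 to 6 class II genes, 0 to 19 pathway genes and a class II median of 2.32 to 3.61. The cause of these changes was not tested.

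With the title numbers as a replicate block, 264 genes, 6 of 6 class II genes (against 1.73% of all genes, as higher) and 4 pathway genes passed. The labels do not say that a number marks a shared animal or batch. Deviations of same-numbered libraries correlated at -0.0329 over 11085 genes. With 2 libraries per genotype this value cannot settle whether same-numbered libraries share an animal or batch. Depth limits Ciita, at 7 to 60 reads, and H2-DMa in WT, at 9 and 21.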

Other observations

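Genes of T cell costimulation, which act beside class II on antigen-presenting cells, were low and mostly below the filter, so they are given as values. Cd80 had 1.45 and 1.01 FPKM in Piezo1KO 1 and Piezo1KO 2, from 79 and 28 reads, against 0.151 and 0.173 FPKM in WT 1 and WT 2, from 11 and 13 reads. Cd86 had 61 and 22 reads in Piezo1KO, against 5 and 8 reads in WT, and Cd40 had 29 and 13 reads in Piezo1KO, against 8 and 4 reads in WT. All 3 were higher in both Piezo1KO libraries in FPKM. Among the genes tested, which leave these 3 out, that share was 33.9%. Icam1, also below the filter, overlapped between the genotypes, at 1.94 and 0.184 FPKM in Piezo1KO, against 0.384 and 0.417 FPKM in WT. Icosl, the costimulation gene above the filter, had a log2 difference of 0.057 (limma adjusted p = 0.872). H2-Oa, a subunit of the H2-DM inhibitor of B cells, had 15 and 8 reads in Piezo1KO, against 0 and 1 reads in WT. March1, a ubiquitin ligase that removes class II from the surface, had 33 and 9 reads in Piezo1KO, against 9 and 3 reads in WT.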
